A study of Mus musculus with 77 samples.

Results

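The proteasome subunit genes on this array were the 43 gene IDs made of Psma, Psmb, Psmc, Psmd, Psme, Psmf or Psmg and a number, picked by name alone from 18138 IDs. They were 17 core genes (Psma and Psmb), 23 regulatory genes (Psmc, Psmd and Psme), the inhibitor gene Psmf1, and the core assembly chaperone genes Psmg2 and Psmg3. A gene was tested where its signal stood above the negative control beads (detection p under 0.05) on at least 3 arrays. That left 40 of the 43, which were 14 core genes, all 23 regulatory genes and all 3 of the others. The alpha ring genes Psma1, Psma3 and Psma6 were detected on 0 of 77 arrays and were not tested.

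Livers of male B6C3F1 mice, a hybrid mouse used in rodent carcinogenicity bioassays, were profiled after 7 days of exposure on Illumina bead arrays, in 77 samples of 18 groups. DEHP, a phthalate ester with branched ethylhexyl chains, was given at 750, 1500, 3000 and 6000 ppm. BBP, with a butyl and a benzyl ester, was given at 1500, 3000, 6000 and 12000 ppm, and DNOP, with linear octyl esters, at 1250, 2500, 5000 and 10000 ppm. Phenobarbital (PB), a barbiturate, was given at 75, 150, 300 and 600 ppm. Each dose group held 4 samples, except 3 at 10000 ppm DNOP, and the references were 10 phthalate controls and 4 PB controls at 0 ppm. No group carried a transgene or a deleted gene per the labels, which give no age and do not name the medium of the doses. The series asks from which dose each phthalate sets off early changes of the kind that the fatty acid receptor PPARA drives.

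The proteasome is the cell's main protease for proteins tagged with ubiquitin. Its core is a barrel of stacked rings, with gated alpha rings outside and beta rings inside that carry the catalytic subunits Psmb5, Psmb6 and Psmb7. The regulatory particle sits on the barrel: its base holds the ATPase subunits (Psmc), which unfold substrates, and its lid holds Psmd14, which cuts off the ubiquitin. In cells exposed to interferon, Psmb8, Psmb9 and Psmb10 take the place of the standard catalytic subunits in the immunoproteasome, and Psme1 and Psme2 form the activator PA28. In mammalian cells under proteasome inhibition or oxidative stress, the factors encoded by Nfe2l1 and Nfe2l2 raise the transcription of subunit genes.

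Values below are background-corrected, quantile-normalized log2 intensities, and a change is a difference between group means on that scale. Each gene's probe has its own brightness, so levels are compared between samples of a gene and never between genes. Between 36.88% and 46.64% of the IDs were detected per array. The array of PB control replicate 1 was the dimmest, with a mean signal of 132.2 where the brightest array had 519.5. The PB controls were low in detection as a group, at 36.88%, 38.95%, 41.15% and 39.82% of the IDs, where the median array had 44.29%. Leaving out replicate 1 does not remove this difference, and its part in the changes with PB was not tested. The 3 phthalate controls that carry the label number 32 stood apart: the mean log2 level of 14 PPARA target genes was 9.24 ± 0.23 in them and 7.96 ± 0.19 in the other 7 (SD). Their mean level of the 40 proteasome genes, relative to all phthalate controls, was -0.13 ± 0.08, and that of the other 7 was 0.05 ± 0.06. Calls lost without these 3 controls, or without PB control replicate 1, are given beside the results. No pair of arrays held identical values. The labels give each sample a number and a letter, and the 4 samples of each PB dose carry only 2 numbers, those of the PB controls 3 and those of the phthalate controls 4, while every phthalate-dosed sample has a number of its own within its group. What the number stands for, and whether the samples come from separate animals, is not stated in the labels, and p-values then measure only the spread between these samples, which may be technical. Of the 5 hepatocyte genes looked at, Ttr, Apoa1 and Cps1 were detected on 77 arrays, Alb on 76 and Tat on 6. Fewer cells of a type and less RNA per cell cannot be told apart in whole liver.

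Of the 43 proteasome genes, 29 were detected on all 77 arrays. The least often detected of the tested genes were Psmd5, on 6 arrays, Psmc6 on 10, Psmd11 on 19, Psmb2 on 32, Psmd6 on 46 and Psmd2 on 53. Psmb2 had a median raw signal of 1466 in spite of its detection p-values. Among the 40 tested genes, the range of the 18 group means was widest for Psmd14, at 2.13 log2 units, and it was 1.35 for Psme3, 1.12 for Psmc1 and 1.08 for Psmb10. It was 0.34 for Psme4, which encodes the nuclear activator PA200, and 0.30 for Psmc6.

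A gene was called where its limma adjusted p (Benjamini-Hochberg over 11324 genes) was under 0.05. At 6000 ppm DEHP, 16 of the 40 proteasome genes rose and 2 fell, where 5.22% of all genes tested rose and 4.15% fell. At 3000 ppm DEHP 2 rose and 2 fell (4.43% and 3.97% of all genes), at 1500 ppm 0 rose and 1 fell (2.53% and 2.01%), and at 750 ppm 2 rose and 1 fell (1.12% and 0.777%). With BBP, 1 fell and 0 rose at 12000 ppm, where 1.42% of all genes fell and 1.48% rose. None were called at 6000, 3000 or 1500 ppm BBP, where limma called 0.0795%, 0% and 0% of all genes in either direction, and an unadjusted p under 0.05 gave 4, 0 and 1 of the 40. None were called with DNOP at 1250, 2500, 5000 or 10000 ppm, where 0%, 0.238%, 0.212% and 0.0618% of all genes were called and an unadjusted p under 0.05 gave 0, 2, 3 and 2 of the 40. With PB, 2 rose and 2 fell at 75 ppm (2.55% and 3.91% of all genes), and 7 rose and 2 fell at 150 ppm (4.86% and 6.72%). At 300 ppm PB 4 rose and 2 fell (3.29% and 5.14%), and at 600 ppm 7 rose and 2 fell (4.42% and 5.55%). The PB counts depended on the scaling: with each array centred on its median in place of quantile normalization, 0, 30, 28 and 29 of the 40 were called at 75, 150, 300 and 600 ppm, all of them higher, while over all genes 4924 were called higher and 154 lower at 150 ppm, against 550 and 761 with quantile normalization. At 750, 1500, 3000 and 6000 ppm DEHP median centring called 0, 0, 1 and 9 of the 40, all higher, and at 12000 ppm BBP 0. With the samples of a label number averaged, 1, 4, 2 and 5 of the 40 were called at the 4 PB doses. Apart from 150 ppm PB with median centring, the counts of these alternatives stand without the share of all genes.

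**Figure D1:**
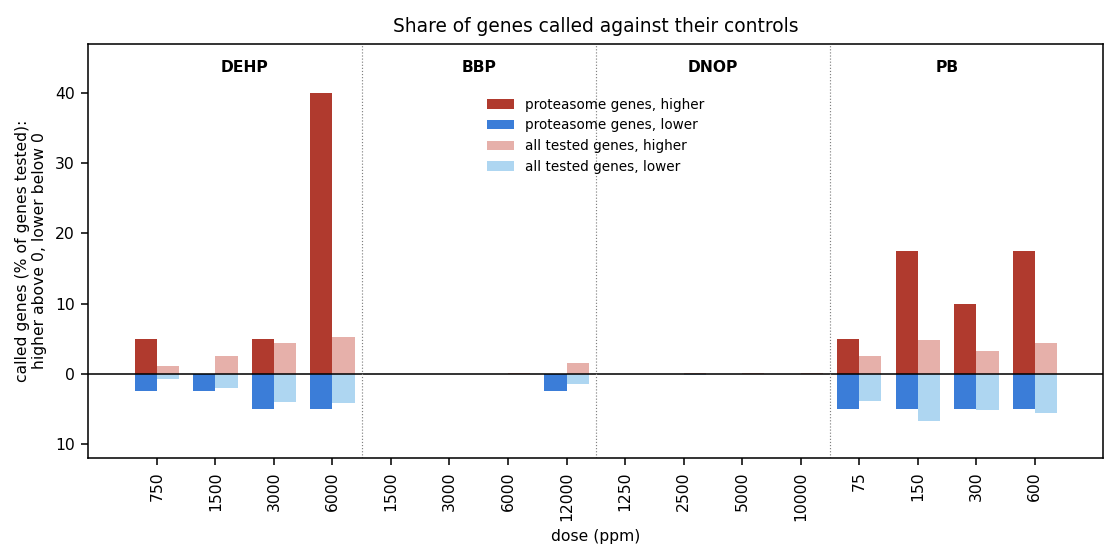
Share of the 40 tested proteasome genes (dark bars) and of all 11324 tested genes (pale bars) called higher (above 0) or lower (below 0) than their controls, in percent, by compound and dose in ppm. The dark bar of risers at 6000 ppm DEHP stands at 40%, beside 5.22% for all genes, while the DNOP bars are at or near 0.

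The median change of the 40 proteasome genes from the controls was 0.06, 0.13, 0.17 and 0.31 at 750, 1500, 3000 and 6000 ppm DEHP, and the median of all genes tested lay within 0.02 of 0 in each. The change was above 0 for 25, 28, 31 and 31 of the 40 at these doses. With BBP the median was -0.03, 0.05, 0.09 and 0.14 at 1500, 3000, 6000 and 12000 ppm. With DNOP it was 0.02, 0.02, 0.05 and 0.11 at 1250, 2500, 5000 and 10000 ppm. With PB it was 0.01, 0.14, 0.07 and 0.06 at 75, 150, 300 and 600 ppm. The DEHP, BBP and DNOP groups share their controls, so their values stand side by side and are not independent.

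**Figure D2:**
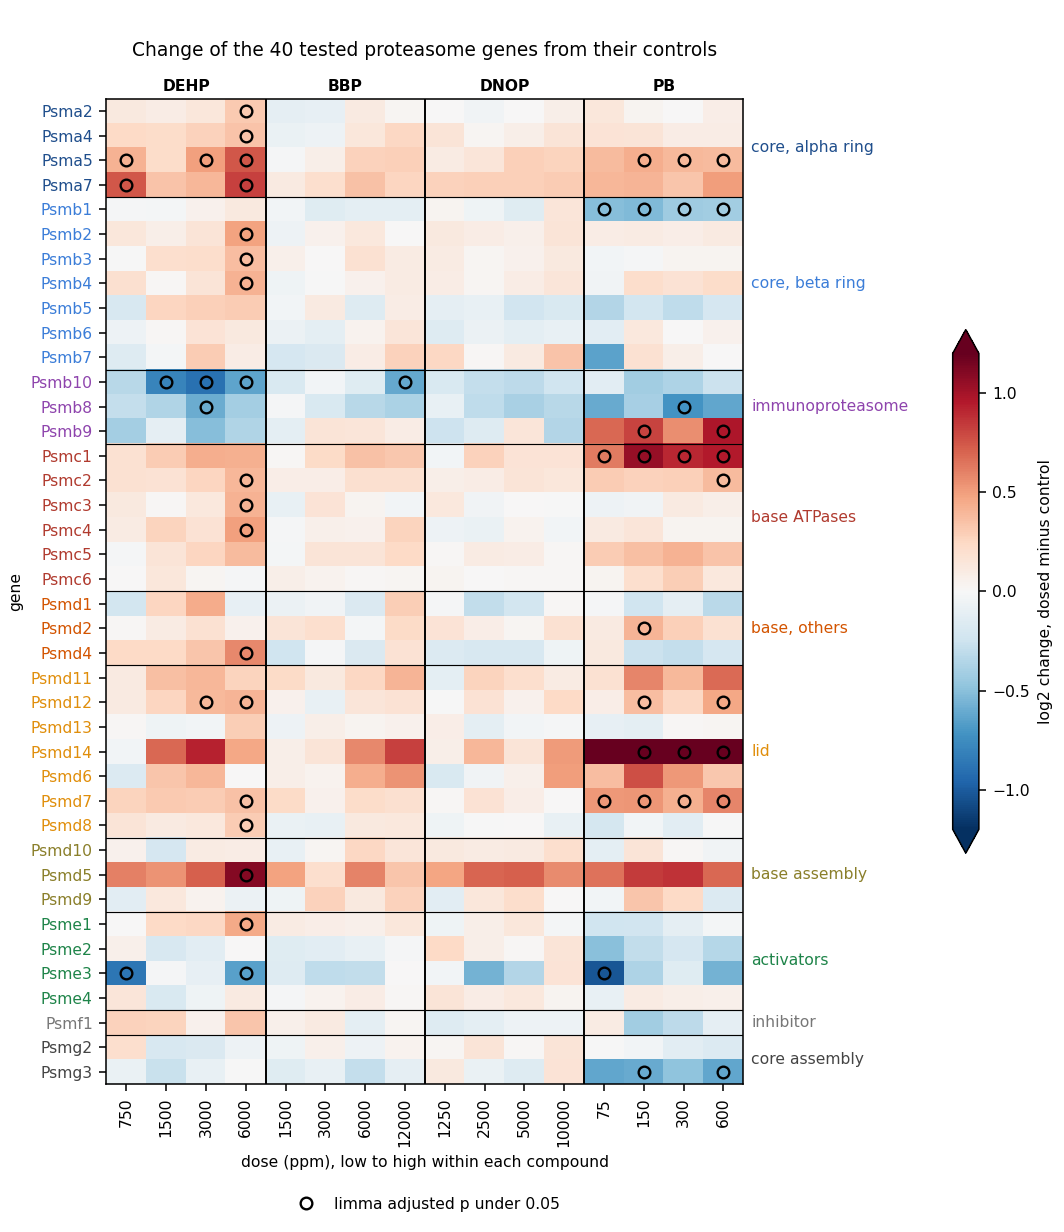
Log2 change of each of the 40 tested proteasome genes (rows, by role) from its controls at each dose (columns, in ppm, low to high within a compound); red is higher, blue lower, and circles mark limma adjusted p under 0.05. The 6000 ppm DEHP column holds 18 circles, and the PB columns show Psmc1, Psmd7 and Psmd14 in red and Psmb1 in blue (Psmb1 turned positive at 150, 300 and 600 ppm PB when arrays were centred on their medians).

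The promoters of 6 genes on which the results turn are shown first, since 16 genes of this family rose at 6000 ppm DEHP, while Psmb10 fell there and Psmd14 rose with PB, and the sequence can be searched for elements of the stress factors and the nuclear receptor named above. They come from RefSeq (GRCm38.p6), which has a promoter for 37 of the 43 genes, and run from 250 bases before the start of the gene to 50 bases after it, on the gene's strand. Capitals mark the core of the antioxidant response element (TGACNNNGC, bound by Nfe2l1 and Nfe2l2), the CCAAT box (CCAAT) and the nuclear receptor half-site (AGGTCA), each searched on both strands. Psma5 lies at chr3:108256676-108256975 (+), Psma7 at chr2:180042415-180042714 (-), Psmd4 at chr3:95042565-95042864 (-), Psmd12 at chr11:107479278-107479577 (+), Psmb10 at chr8:105938343-105938642 (-) and Psmd14 at chr2:61711444-61711743 (+).
Psma5: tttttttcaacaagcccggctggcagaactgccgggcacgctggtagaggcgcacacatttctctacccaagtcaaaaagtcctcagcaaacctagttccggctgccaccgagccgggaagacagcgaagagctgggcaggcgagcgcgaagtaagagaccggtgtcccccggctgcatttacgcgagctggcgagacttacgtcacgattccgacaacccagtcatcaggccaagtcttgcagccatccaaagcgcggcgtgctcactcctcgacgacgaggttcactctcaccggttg
Psma7: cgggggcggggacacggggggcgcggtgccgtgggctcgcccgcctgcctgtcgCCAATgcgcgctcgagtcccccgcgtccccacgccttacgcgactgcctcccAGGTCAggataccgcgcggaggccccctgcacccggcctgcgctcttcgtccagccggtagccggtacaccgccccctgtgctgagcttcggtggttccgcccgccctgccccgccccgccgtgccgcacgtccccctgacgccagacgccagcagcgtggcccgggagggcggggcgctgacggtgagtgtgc
Psmd4: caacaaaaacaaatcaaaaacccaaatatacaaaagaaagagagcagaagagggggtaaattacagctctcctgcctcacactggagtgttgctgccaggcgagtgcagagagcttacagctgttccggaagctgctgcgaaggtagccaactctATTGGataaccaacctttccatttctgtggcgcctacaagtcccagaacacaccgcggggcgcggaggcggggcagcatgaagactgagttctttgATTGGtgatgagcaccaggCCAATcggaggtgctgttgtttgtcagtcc
Psmd12: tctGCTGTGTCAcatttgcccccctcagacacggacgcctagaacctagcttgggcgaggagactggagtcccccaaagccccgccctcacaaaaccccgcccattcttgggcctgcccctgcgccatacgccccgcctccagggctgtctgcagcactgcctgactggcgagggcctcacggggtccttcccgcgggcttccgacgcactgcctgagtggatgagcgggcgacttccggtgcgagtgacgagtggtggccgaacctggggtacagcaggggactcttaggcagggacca
Psmb10: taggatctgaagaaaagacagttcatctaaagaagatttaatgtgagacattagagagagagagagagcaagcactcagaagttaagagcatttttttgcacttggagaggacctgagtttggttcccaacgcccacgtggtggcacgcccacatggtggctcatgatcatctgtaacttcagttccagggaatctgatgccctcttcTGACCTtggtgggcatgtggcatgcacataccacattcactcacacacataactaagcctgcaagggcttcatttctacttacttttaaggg
Psmd14: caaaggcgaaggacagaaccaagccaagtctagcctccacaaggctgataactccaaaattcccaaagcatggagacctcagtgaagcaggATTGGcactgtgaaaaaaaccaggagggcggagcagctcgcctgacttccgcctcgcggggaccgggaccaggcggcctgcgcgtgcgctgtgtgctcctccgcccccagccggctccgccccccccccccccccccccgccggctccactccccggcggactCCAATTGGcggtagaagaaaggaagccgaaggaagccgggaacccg

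In these windows Psma5 held none of the 3 motifs, Psma7 a CCAAT box and a half-site, Psmd4 and Psmd14 3 CCAAT boxes each, Psmd12 an antioxidant response element core on the reverse strand and Psmb10 a half-site on the reverse strand. In Psmd14, 2 of the CCAAT boxes overlap on opposite strands. The antioxidant response element core was in 6 of the 37 windows (16.2%) and in 12.4% of all 32851 RefSeq promoters of this length. The 6 are Psmb5, Psmb6, Psmc6, Psmd9, Psmd12 and Psme4. The CCAAT box was in 13 of the 37 (35.1%) and in 37.4% of all promoters, and the half-site in 9 of the 37 (24.3%) and in 16.3% of all. The direct repeat AGGTCANAGGTCA, the element PPARA is known to bind, was in 0 of the 37 and in 0.0396% of all. Of the 16 genes that rose at 6000 ppm DEHP, 13 had a window, and 1, 5 and 3 of these 13 held the antioxidant response element core, the CCAAT box and the half-site.

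At 6000 ppm DEHP all 4 tested genes of the alpha ring, which gates the entrance of the core, rose, with a median change of 0.54. Psma5 had 12.06, 12.53, 12.29 and 12.45 in the 4 treated samples, and 11.21, 11.57 and 11.80 as the lowest, median and highest of the 10 controls. Every treated sample lay above every control. The change was 0.74 ± 0.10 (SE), a 1.67-fold rise, with a limma adjusted p of 1.99e-07. Psma7 had 10.85, 11.46, 11.13 and 11.11 in treated samples, against 9.48, 10.41 and 10.85 as the lowest, median and highest control. The lowest treated sample sat just above the highest control. Its change was 0.82 ± 0.16 (SE, 1.77-fold, limma adjusted p = 0.000117). Psma2 had 12.18, 12.36, 12.25 and 12.38 in treated samples, against 11.77, 12.00 and 12.12 as the lowest, median and highest control, again with no overlap (change 0.32 ± 0.07, limma adjusted p = 0.00161). Psma4 overlapped its controls and passed the threshold narrowly (0.34, limma adjusted p = 0.0474). Without the 3 controls numbered 32 its change was 0.19 and its adjusted p 0.329.

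Of the 7 standard beta ring genes, 3 rose at 6000 ppm DEHP and all 7 had a change above 0, with a median of 0.31. The risers were Psmb2, Psmb3 and Psmb4, none of which carries a catalytic site. Psmb2 had 10.70, 10.87, 10.72 and 10.44 in treated samples, against 9.84, 10.22 and 10.33 as the lowest, median and highest control. The groups did not overlap, with a change of 0.49 ± 0.09 (SE, limma adjusted p = 9.02e-05), although the gene was detected on 2 of the 4 treated arrays and 3 of the 10 control arrays. Psmb4 had 12.49, 12.86, 12.52 and 12.54 in treated samples, against 11.96, 12.22 and 12.38 as the lowest, median and highest control, and treated replicate 2 stood apart from the other 3. Its change was 0.41 (limma adjusted p = 0.00145), and that of Psmb3 was 0.37 (limma adjusted p = 0.0035).

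The standard catalytic genes did not pass the test. Psmb5, which encodes the chymotrypsin-like subunit, had 7.57, 7.90, 8.13 and 8.08 in samples given 6000 ppm DEHP, against 7.26, 7.58 and 8.15 as the lowest, median and highest control. The groups overlapped, and the change was 0.31 (limma adjusted p = 0.226). The change of Psmb6, the caspase-like subunit, was 0.12 (limma adjusted p = 0.67), and that of Psmb7, the trypsin-like subunit, was 0.09 (limma adjusted p = 0.879). The 95% intervals were 0.01 to 0.60, -0.13 to 0.37 and -0.34 to 0.52 for Psmb5, Psmb6 and Psmb7, so changes of the size seen in Psma2 lie within all 3.

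Of the 23 regulatory genes, which besides the base and lid of the regulatory particle include 3 chaperones of the base and 4 activator genes, 9 rose at 6000 ppm DEHP and 1 fell. Of the 6 base ATPase genes, which encode the unfolding motor, Psmc2, Psmc3 and Psmc4 rose, and the median of the 6 was 0.40. Psmc4 had 10.80, 11.02, 10.97 and 10.98 in treated samples, against 10.01, 10.48 and 10.67 as the lowest, median and highest control, with no overlap. Its change was 0.49 ± 0.13 (SE, 1.41-fold, limma adjusted p = 0.00475). Psmc2 rose by 0.39 without overlap (limma adjusted p = 0.00271) and Psmc3 by 0.41 with overlap (limma adjusted p = 0.037). Psmc1 and Psmc5 had changes of 0.43 and 0.38 that did not pass (limma adjusted p = 0.0871 and 0.0743). Psmc6 was close to background.

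Psmd4, the ubiquitin receptor of the base, had 12.25, 12.45, 12.28 and 12.40 at 6000 ppm DEHP, against 11.58, 11.78 and 11.91 as the lowest, median and highest control. Every treated sample lay above every control, and the change was 0.58 ± 0.14 (SE, 1.49-fold, limma adjusted p = 0.00221). The other genes of the base that do not encode ATPases, Psmd1 and Psmd2, which encode its large scaffold subunits, had changes of -0.10 and 0.05 and did not pass. Of 7 lid genes 3 rose, and all 7 changes were above 0, with a median of 0.31. Psmd12, a scaffold subunit of the lid, had 8.65, 9.26, 9.36 and 9.03, against 8.30, 8.63 and 9.02 as the lowest, median and highest control, so 1 treated sample lay within the control range (change 0.41 ± 0.11, limma adjusted p = 0.00546). Psmd7, the partner of the deubiquitinase, rose by 0.35 and Psmd8 by 0.31 (limma adjusted p = 0.0467 and 0.043). The deubiquitinase Psmd14 itself had 7.35, 7.26, 8.60 and 8.40, against 6.79, 7.21 and 8.77 as the lowest, median and highest control, with a limma adjusted p of 0.602. The lid gene Psmd11 had a change of 0.27 (limma adjusted p = 0.553).

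Psme1, the alpha subunit of the PA28 activator, had 10.26, 10.76, 10.54 and 10.72 at 6000 ppm DEHP, against 9.98, 10.12 and 10.22 as the lowest, median and highest control. All treated samples were above all controls, by 0.45 ± 0.09 (SE, 1.37-fold, limma adjusted p = 0.000387). Its partner Psme2 had 7.63, 7.97, 7.72 and 7.45, against 6.78, 7.80 and 8.04, and its change rounded to 0.00 (limma adjusted p = 0.996, 95% interval -0.48 to 0.49). Psme3, the subunit of a separate nuclear activator ring, fell: it had 8.69, 8.70, 8.20 and 9.02, against 8.75, 9.32 and 9.53 as the lowest, median and highest control. The single treated sample above the lowest control was replicate 4, and the change was -0.65 ± 0.20 (SE, limma adjusted p = 0.0262). This call was lost in 3 of 26 alternatives. Among the assembly chaperones of the base, Psmd5 had a limma adjusted p of 0.00524, with levels of 5.28, 6.80, 6.26 and 5.22 against 4.34, 4.86 and 5.45 as the lowest, median and highest control. It was detected on 0 of the 4 treated arrays, although it was detected among the controls, so no fold is given. Its change ran from 0.17 to 1.32 over 25 alternatives, and the call was lost in 1. Psmd5 is counted among the genes that rose in spite of this. Psmd9, Psmd10, Psmf1, Psmg2 and Psmg3 did not pass, with changes from -0.07 to 0.33.

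**Figure D3:**
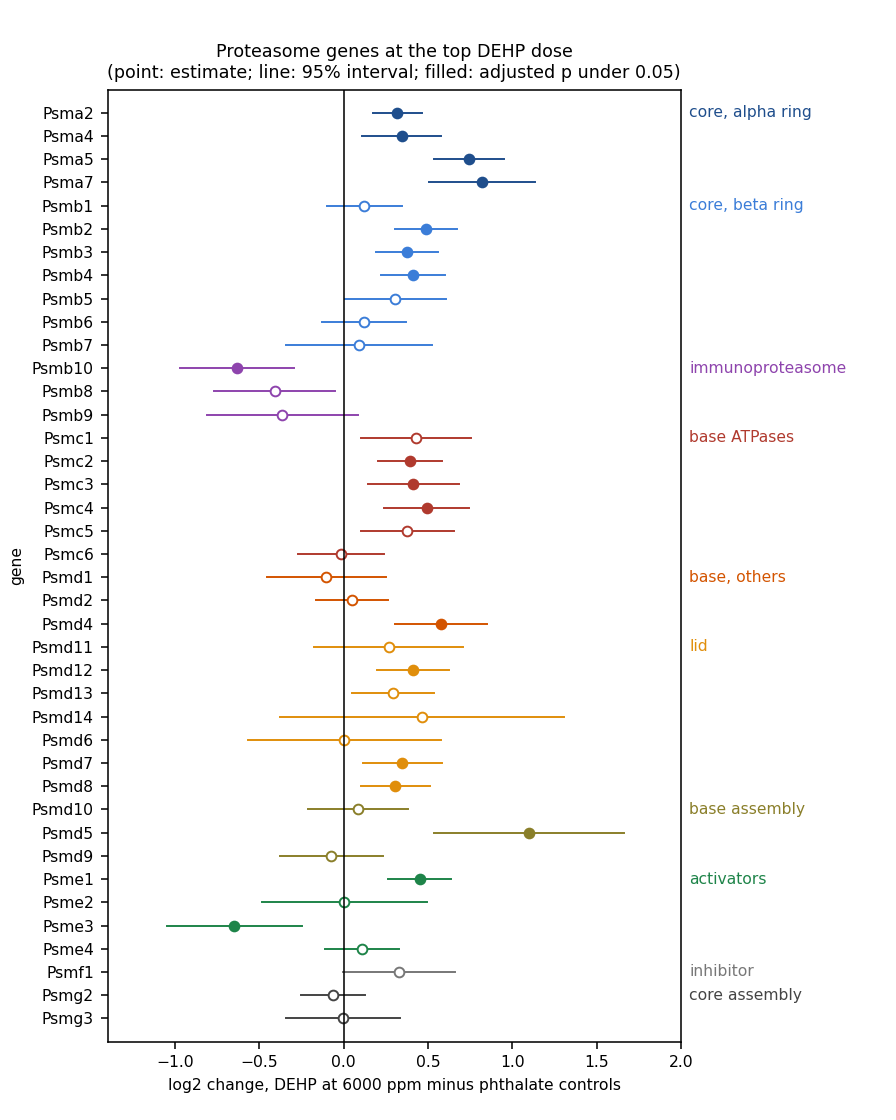
Log2 change (points) with 95% interval (lines) of the 40 tested proteasome genes at 6000 ppm DEHP minus the phthalate controls, by role; filled points have a limma adjusted p under 0.05. The alpha ring points lie between 0.32 and 0.82, while the immunoproteasome genes Psmb8, Psmb9 and Psmb10 lie between -0.63 and -0.36.

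The count at 6000 ppm DEHP depended on single samples, and the counts that follow are given without the share of all genes. Without treated replicate 2, 10 genes rose and 0 fell, and without treated replicate 3, 12 rose and 0 fell. Without the 3 controls numbered 32, 12 rose and 2 fell, and all 14 were among the 18. The 4 lost then were Psma4, Psmc3, Psmd7 and Psmd8. Under 26 alternatives of processing, replicates and controls, Psma5, Psma7, Psmc4, Psmd4 and Psme1 kept an adjusted p under 0.05 in all 26, and Psmb2 in all 25 in which it was tested. Psma4 and Psmd7 lost it in 14 each, and Psmc3 and Psmd8 in 11 each.

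Markers of other liver cells differed in the same samples. Stab2, an endothelial gene, fell by 0.60 at 6000 ppm DEHP (limma adjusted p = 0.0368), and Dcn, a stellate cell gene, by 0.51 (limma adjusted p = 0.0304), each the single called gene of 5 in its list. Alas2, which red cell precursors need for heme, fell by 0.87 (limma adjusted p = 0.000146) and was the single called gene of the 5 red cell markers. The summed intensity of the 5 hepatocyte markers ran from 26150 to 29850 in treated samples, against 27950 to 35800 in controls, with none called. The stellate sum ran from 2362 to 2645, against 2525 to 3829, and the endothelial sum from 2212 to 4080, against 2578 to 3860. Without the 3 controls numbered 32, Stab2 and Dcn did not pass (limma adjusted p = 0.198 and 0.0596) and Alas2 did (limma adjusted p = 0.000268). Their part in the 18 calls was not tested.

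The immunoproteasome genes had the opposite sign: of the 3, 0, 1, 2 and 1 fell at 750, 1500, 3000 and 6000 ppm DEHP, and none rose. Psmb10, the trypsin-like subunit of the immunoproteasome, had 8.93, 8.85, 9.20 and 8.23 at 750 ppm DEHP, 8.12, 8.11, 8.78 and 8.36 at 1500 ppm, 8.33, 8.06, 8.43 and 8.14 at 3000 ppm and 9.01, 8.25, 8.26 and 8.50 at 6000 ppm, against 8.89, 9.08 and 9.53 as the lowest, median and highest control. Every sample at 1500 and 3000 ppm lay below every control, and at 6000 ppm replicate 1 lay within the control range. The changes were -0.34, -0.79, -0.90 and -0.63, with limma adjusted p-values of 0.393, 0.00132, 0.000107 and 0.00837. The level was lowest at 3000 ppm and not at the top dose. Without treated replicate 2 or 3 the fall at 6000 ppm did not pass the test. With median-centred arrays the changes were -0.76, -0.57 and -0.26 at 1500, 3000 and 6000 ppm, and none passed (limma adjusted p = 0.257, 0.231 and 0.583).

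Psmb8, the chymotrypsin-like immunosubunit, had 5.27, 4.81, 4.97 and 5.25 at 3000 ppm DEHP, against 5.12, 5.74 and 6.06 as the lowest, median and highest control. Its change of -0.60 passed there (limma adjusted p = 0.0236) but not at 6000 ppm, where it was -0.41 (limma adjusted p = 0.159). Its median raw signal over all arrays was 129, not far above background, and the size of its change at 3000 ppm depended on the background correction. It was -0.20 without correction and -0.08 with neqc, limma's standard procedure, which did not pass (limma adjusted p = 0.0689). The call was lost in 5 of 26 alternatives. Psmb9, the remaining immunosubunit, had 6.77, 6.80, 6.99 and 6.64 at 3000 ppm, against 6.88, 7.30 and 7.97, a change of -0.51 with a limma adjusted p of 0.161. At 6000 ppm it had 6.95, 6.29, 7.15 and 7.39, a change of -0.36 (limma adjusted p = 0.381). The median over the 3 immunosubunits was -0.34, -0.36, -0.60 and -0.41 from the lowest to the highest DEHP dose, and all 3 were below 0 at each.

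Immune cells are the main source of immunoproteasome subunits in a resting liver, so their markers are given here. The summed intensity of 5 tested lymphocyte markers ran from 114.6 to 127.1 at 3000 ppm DEHP and from 105.8 to 129.5 at 6000 ppm, against 109 to 135 in phthalate controls, and none of the 5 was called in either. Ptprc and Cd8a, also in the lymphocyte list, were detected on 0 arrays and were not tested. The sum of 6 tested macrophage markers ran from 714.6 to 1887 at 3000 ppm and from 1395 to 1994 at 6000 ppm, against 665.1 to 2313 in controls, again with none called. At 1500 ppm the macrophage sum ran from 643.6 to 1179, and Cd68 was the single called gene of the 6, with a fall of 0.76 (limma adjusted p = 0.0492). Psmb10 fell in that group and also at 3000 and 6000 ppm. Red cell markers were lower in places: their sum was 3710 to 5225 at 3000 ppm and 3078 to 9026 at 6000 ppm, against 4962 to 13930 in controls. At 3000 ppm the red cell genes Hba-a1 and Alas2, the called genes of the 5 in that list, fell by 1.08 and 0.62 (limma adjusted p = 0.0234 and 0.0106). Both also passed without the controls numbered 32 (limma adjusted p = 0.00233 and 0.0133). The part of these cells in the changes of Psmb8, Psmb9 and Psmb10 was not tested. Of 8 tested genes of antigen processing and interferon response, a list chosen with earlier results known, 0 were called at 750, 3000 or 6000 ppm DEHP, and at 1500 ppm only Irf9 was, with a change of -0.43.

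**Figure D4:**
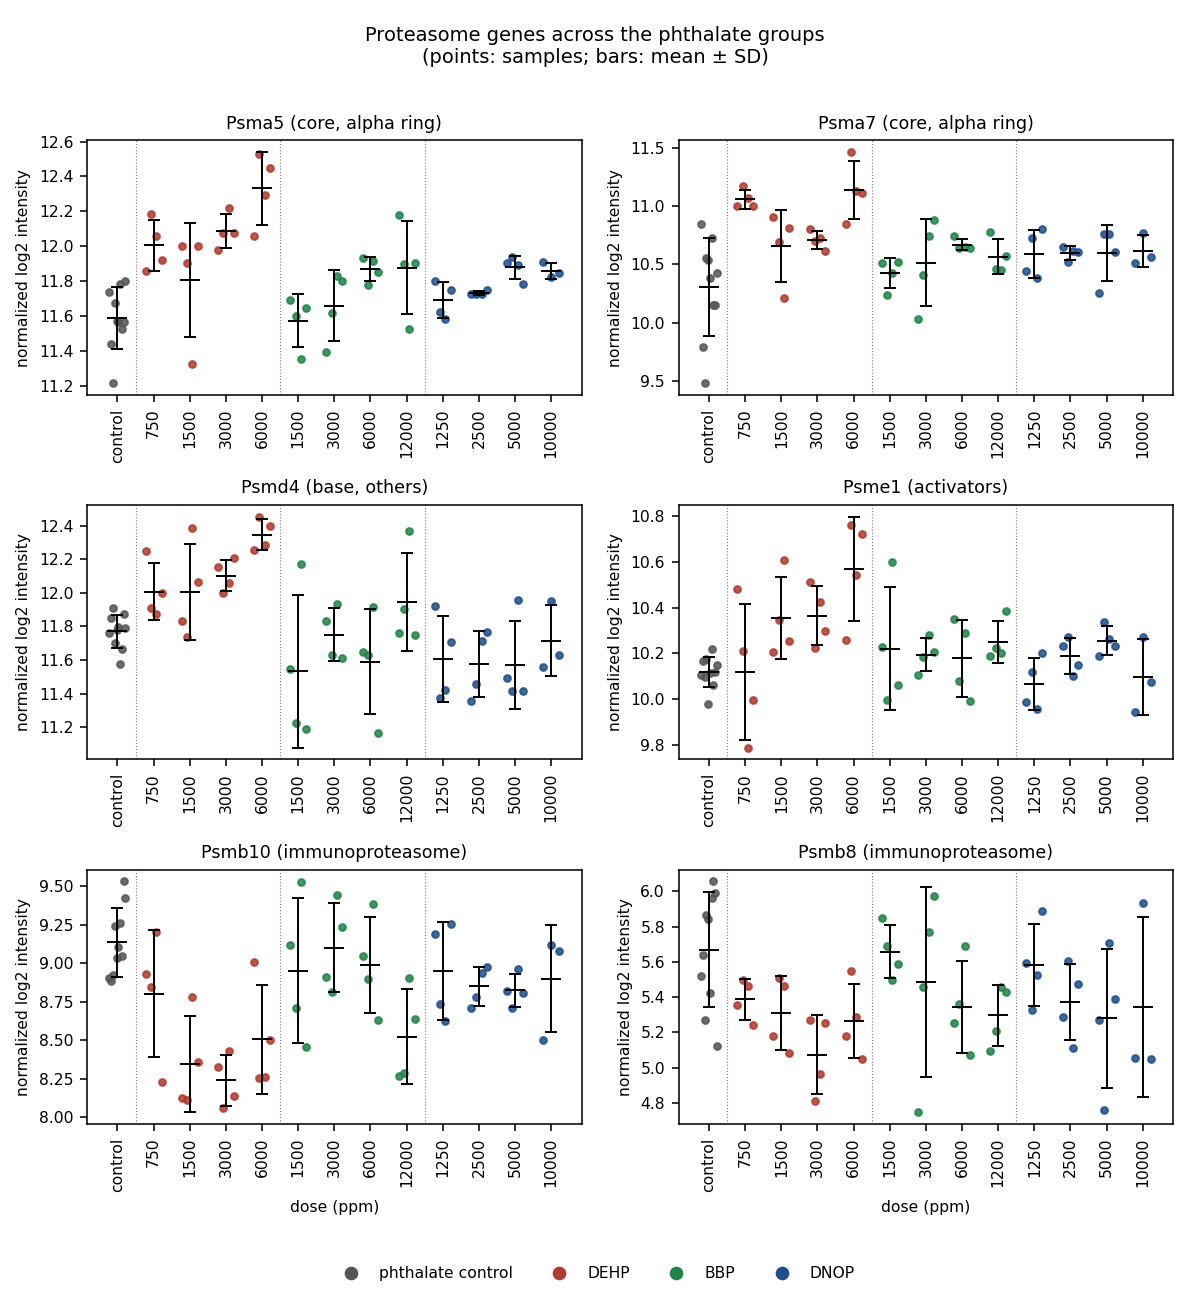
Normalized log2 intensity of 6 proteasome genes in each sample (points) of the phthalate controls and of the DEHP, BBP and DNOP groups by dose in ppm, with the mean and SD (bars). Psma5, Psma7, Psmd4 and Psme1 have their highest group mean at 6000 ppm DEHP, and Psmb10 and Psmb8 have their lowest at 3000 ppm DEHP.

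At lower DEHP doses few genes passed. At 750 ppm Psma5 had 11.86, 12.19, 12.06 and 11.92, against 11.21, 11.57 and 11.80 as the lowest, median and highest control, and Psma7 had 11.00, 11.17, 11.07 and 11.00, against 9.48, 10.41 and 10.85. All samples lay above all controls for both genes. The changes were 0.42 for Psma5 (limma adjusted p = 0.0186) and 0.74 for Psma7 (limma adjusted p = 0.00443). Neither passed at 1500 ppm, where the changes were 0.22 and 0.34. At 3000 ppm Psma5 passed again with 11.98, 12.07, 12.22 and 12.07 (0.50, limma adjusted p = 0.000583). Psmd12 had 9.0, 9.01, 9.15 and 9.04 there, against 8.30, 8.63 and 9.02 as the lowest, median and highest control (0.39, limma adjusted p = 0.0104). Psme3 fell at 750 ppm as well, with 8.90, 8.38, 8.32 and 8.14 and a change of -0.87 (limma adjusted p = 0.00908), while at 1500 and 3000 ppm its change was -0.02 and -0.10. Its call at 750 ppm was lost in 2 of 26 alternatives. Leaving out replicate 3 at 3000 ppm left 2 genes called, and leaving out replicate 3 at 1500 ppm gave 2, each without the share of all genes beside it.

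Psmb10 was the single proteasome gene called with BBP. At 12000 ppm it had 8.27, 8.29, 8.91 and 8.64, against 8.89, 9.08 and 9.53 as the lowest, median and highest control, so that replicate 3 touched the control range. The change was -0.61 ± 0.17 (SE, limma adjusted p = 0.0271). The call was lost when BBP replicate 1, 2 or 4 was left out, and without replicate 3 another gene rose beside it. Psma5 had 12.18, 11.90, 11.53 and 11.90 at 12000 ppm BBP and 11.91, 11.82 and 11.84 at 10000 ppm DNOP, against 11.21, 11.57 and 11.80 in the controls. All 3 DNOP samples lay above the controls and 1 BBP sample did not. Its changes of 0.29 and 0.27 did not pass (limma adjusted p = 0.14 and 0.864).

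At the top doses the values of the genes that rose with DEHP stood side by side as follows, without a comparison, since the doses differ. The change of Psma7 was 0.82 at 6000 ppm DEHP, 0.25 at 12000 ppm BBP and 0.30 at 10000 ppm DNOP. That of Psmd4 was 0.58, 0.18 and -0.05, and that of Psme1 was 0.45, 0.13 and -0.02, in that order of compounds. None passed with BBP or DNOP. In the same order the PPARA target Cyp4a14 rose by 4.89, 5.15 and 4.32, Ehhadh by 4.53, 4.32 and 2.49, and Acot1 by 4.43, 4.09 and 2.96. The mean log2 level of the 14 PPARA targets ran from 9.92 to 10.68 with DEHP, 9.79 to 10.37 with BBP and 9.33 to 9.65 with DNOP. The part of PPARA in the proteasome changes was not tested.

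DEHP and BBP, which differ in their ester groups, were compared directly at the 3 doses that both were given, with p-values adjusted over the 11324 genes of each comparison. At 6000 ppm 3 of the 40 genes were higher with DEHP and 0 were lower, where 1.63% and 0.565% of all genes were. Psmd4 had 12.25, 12.45, 12.28 and 12.40 with DEHP and 11.65, 11.63, 11.92 and 11.17 with BBP. The groups did not overlap, and the difference was 0.76 (95% interval 0.44 to 1.08, limma adjusted p = 0.00184). Psma5 had 12.06, 12.53, 12.29 and 12.45 with DEHP and 11.93, 11.78, 11.91 and 11.85 with BBP, a difference of 0.46 (95% interval 0.22 to 0.71, limma adjusted p = 0.0227) without overlap. Psme1 had 10.26, 10.76, 10.54 and 10.72 with DEHP and 10.35, 10.08, 10.29 and 9.99 with BBP, which overlapped (0.39, 95% interval 0.17 to 0.61, limma adjusted p = 0.0364). Without DEHP replicate 2, BBP replicate 2 or BBP replicate 4, 1 gene passed, and without BBP replicate 3, 5 did. These counts stand without the share of all genes and do not set the members apart from other genes.

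At 3000 ppm 2 of the 40 genes were higher with DEHP than with BBP and 1 was lower, where 2.09% and 2% of all genes were. Psma5 had 11.98, 12.07, 12.22 and 12.07 with DEHP and 11.39, 11.61, 11.83 and 11.80 with BBP, with every DEHP sample above every BBP sample (0.43, 95% interval 0.18 to 0.67, limma adjusted p = 0.0264). Psmd12 had 9.0, 9.01, 9.15 and 9.04 with DEHP and 8.44, 8.51, 8.56 and 8.76 with BBP, also without overlap (0.48, limma adjusted p = 0.0111). Psmb10 had 8.33, 8.06, 8.43 and 8.14 with DEHP and 8.91, 8.81, 9.44 and 9.24 with BBP, a difference of -0.86 (95% interval -1.26 to -0.47, limma adjusted p = 0.00338). Of the antigen processing and interferon genes Tap2, a subunit of the peptide transporter, was the 1 of 8 called, 0.75 lower with DEHP (limma adjusted p = 0.0153). The sum of the 5 red cell markers ran from 3710 to 5225 with DEHP and from 8081 to 12360 with BBP, without overlap. Hba-a1, the single called gene of the 5, was 1.61 lower with DEHP (limma adjusted p = 0.00439). The part of red cells in the difference of Psmb10 was not tested. Without BBP replicate 1, Psmb10 alone passed, and with median-centred arrays no gene passed at 3000 or 6000 ppm. At 1500 ppm none of the 40 passed, where limma called 1.69% of all genes in either direction, and 4 of the 40 had an unadjusted p under 0.05. The difference in Psmb10 there was -0.61, with a 95% interval of -1.01 to -0.21 and a limma adjusted p of 0.124. Psma7 did not pass at any of the 3 doses, and at 6000 ppm its interval ran from 0.10 to 0.84 (difference 0.47, limma adjusted p = 0.272).

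With PB, 5 of the 23 regulatory genes rose at 150 ppm, 3 at 300 ppm and 5 at 600 ppm, and 2, 1 and 2 of the 14 core genes did, a difference that was not tested. Without PB control replicate 1, 1, 1 and 2 genes rose in all at these doses. The other PB control arrays also detected fewer IDs than the arrays of these doses, so calls that stay without replicate 1 are not free of that difference. Psmc1, a base ATPase, had 9.01, 8.72, 8.91 and 9.39 at 75 ppm, 9.37, 9.45, 9.48 and 9.39 at 150 ppm, 9.47, 9.39, 9.25 and 9.03 at 300 ppm and 9.32, 9.40, 9.17 and 9.43 at 600 ppm, against 7.65, 8.45, 8.84 and 8.64 in PB controls. All samples at 150, 300 and 600 ppm lay above all controls, and control replicate 1 was the lowest. The changes were 0.63, 1.04, 0.91 and 0.95 from the lowest to the highest dose, with limma adjusted p-values of 0.0415, 0.000258, 0.00188 and 0.000784. Without control replicate 1 the changes at 150, 300 and 600 ppm were 0.78, 0.65 and 0.69 and still passed (limma adjusted p = 0.0115, 0.0471 and 0.0256), and at 75 ppm the change was 0.37 and did not (limma adjusted p = 0.324).

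Psmd14, the lid deubiquitinase, had 8.0, 8.98, 8.33 and 7.84 at 150 ppm PB, 8.62, 8.81, 8.23 and 7.01 at 300 ppm and 7.79, 8.12, 7.08 and 8.31 at 600 ppm, against 4.36, 6.70, 7.38 and 6.52 in PB controls. Control replicate 1 lay over 2 log2 units below the next control and was the array on which the gene was not detected. The changes of 2.08, 1.96 and 1.62 passed (limma adjusted p = 0.00509, 0.00978 and 0.0312). Without that control they were 1.43, 1.31 and 0.96 and did not pass (limma adjusted p = 0.087, 0.139 and 0.298).

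Psmd7, the lid partner of Psmd14, had 9.26, 9.64, 9.32 and 9.49 at 600 ppm PB, against 8.68, 8.71, 9.12 and 8.90 in PB controls, with no overlap. Its changes were 0.52, 0.53, 0.43 and 0.58 at 75, 150, 300 and 600 ppm (limma adjusted p = 0.018, 0.0105, 0.0474 and 0.00434). Without control replicate 1 the change at 600 ppm was 0.52 and passed (limma adjusted p = 0.0304), while those at 75, 150 and 300 ppm did not. Psmd12 rose at 150 and 600 ppm, by 0.37 and 0.47, and Psmc2 rose at 600 ppm, by 0.38 (limma adjusted p = 0.047, 0.0125 and 0.0233). None of these 3 passed without control replicate 1. Psmd2, a base scaffold gene, had 4.83, 4.97, 4.95 and 4.98 at 150 ppm, against 4.59, 4.43, 4.57 and 4.52 in controls, in which it was detected on 0 of 4 arrays. Its change was 0.40 (limma adjusted p = 0.0322). It was 1.32-fold with the control level counted as the higher of its own signal and the dimmest detected signal of the array. That is an estimate and not a lower limit: the change ran from 0.04 to 0.44 over 19 alternatives, and the call was lost in 8. Without control replicate 1 the adjusted p was 0.0611, and in the deposited matrix the change was 0.07 and did not pass (limma adjusted p = 0.207).

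In the core, Psma5 had 11.63, 11.76, 11.79 and 11.69 at 600 ppm PB, against 11.24, 11.28, 11.38 and 11.47 in PB controls, with no overlap. It rose by 0.43, 0.39 and 0.38 at 150, 300 and 600 ppm (limma adjusted p = 0.0188, 0.0423 and 0.0436), and by 0.40, 0.36 and 0.34 without control replicate 1, which did not pass. Psmb1, a structural beta ring subunit, had 10.79, 10.69, 10.96 and 10.69 at 600 ppm, against 11.17, 11.08, 11.26 and 11.30 in controls. Every PB sample lay below every control at all 4 doses, and the changes were -0.51, -0.53, -0.42 and -0.42 from the lowest to the highest dose (limma adjusted p = 0.0139, 0.007, 0.0367 and 0.0364), but centring each array on its median in place of quantile normalization turned them to 0.36, 0.42 and 0.45 at 150, 300 and 600 ppm. Without control replicate 1 the fall of Psmb1 passed at 75 and 150 ppm (limma adjusted p = 0.0293 and 0.0204) and not at 300 and 600 ppm (limma adjusted p = 0.0786 and 0.0722). Psmb9 had 7.48, 7.53, 7.02 and 7.57 at 600 ppm, against 5.69, 6.59, 6.85 and 6.67 in controls, and rose by 0.81 at 150 ppm and 0.97 at 600 ppm (limma adjusted p = 0.0411 and 0.014). Without control replicate 1 these were 0.54 and 0.70 and did not pass. Psmb8, in contrast, had 5.26, 5.38, 5.03 and 5.25 at 300 ppm, against 6.71, 5.77, 5.47 and 5.78, and fell by 0.72 (limma adjusted p = 0.0288), while without control replicate 1 the change was -0.45 and did not pass (limma adjusted p = 0.269), and with median-centred arrays it was -0.04.

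The remaining calls with PB were in an assembly chaperone and an activator. The core chaperone Psmg3 had 7.81, 7.62, 8.13 and 7.65 at 600 ppm, against 8.66, 8.16, 8.41 and 8.49 in controls, with all PB samples lower (change -0.62, limma adjusted p = 0.0395). Its change at 150 ppm was -0.61 (limma adjusted p = 0.0431), and both turned positive when arrays were centred on their medians. Without control replicate 1 neither passed (limma adjusted p = 0.147 at 600 ppm and 0.154 at 150 ppm). Psme3 had 7.58, 8.58, 9.20 and 7.10 at 75 ppm, against 9.16, 8.88, 9.10 and 9.43, a change of -1.02 with overlap (limma adjusted p = 0.00618) that held without control replicate 1 (-1.01, limma adjusted p = 0.0172). The call was lost in 2 of 19 alternatives, median-centred arrays among them, and the change ran from -1.59 to -0.56 over the 19. At 150, 300 and 600 ppm the change of Psme3 was -0.37, -0.15 and -0.56 and did not pass.

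**Figure D5:**
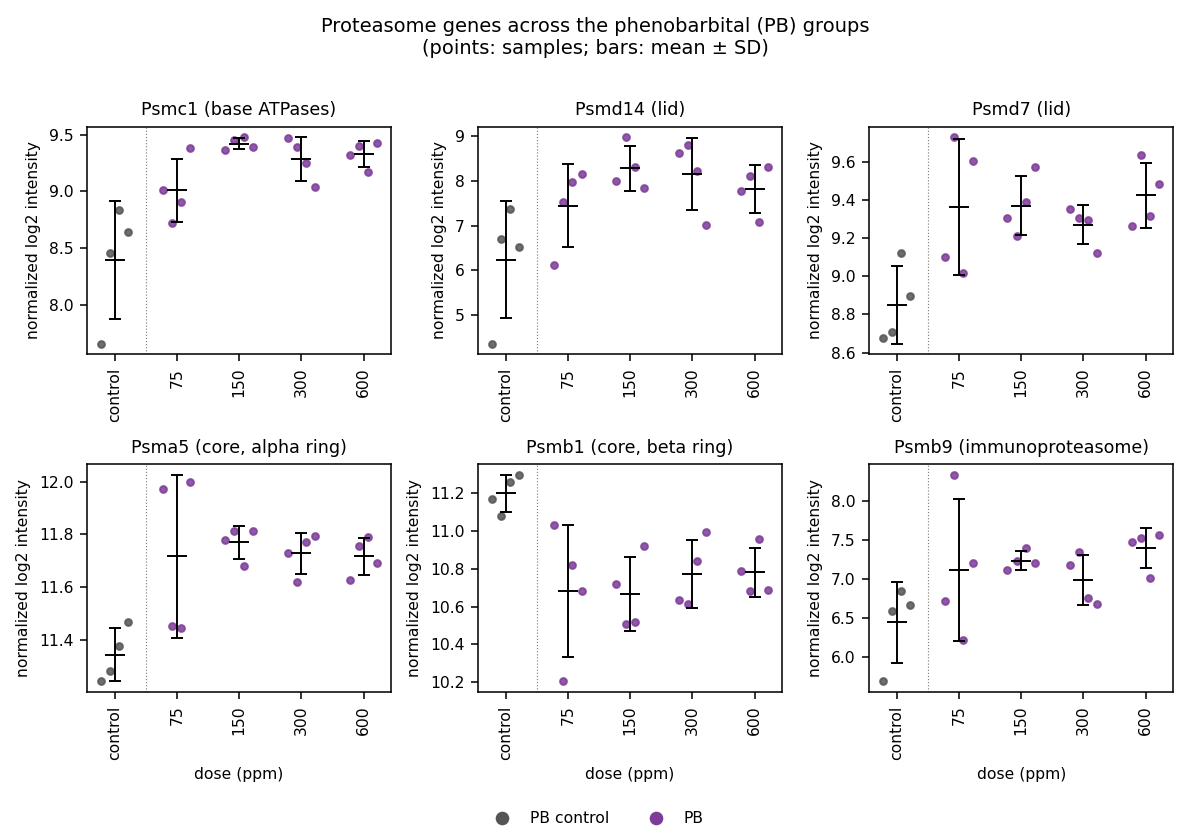
Normalized log2 intensity of 6 proteasome genes in each sample (points) of the PB controls and of 4 PB doses in ppm, with the mean and SD (bars). Control replicate 1 is the low point at 7.65 for Psmc1, 4.36 for Psmd14 and 5.69 for Psmb9, and Psmb1 lies below all controls at every dose (above 0 change at 150, 300 and 600 ppm with arrays centred on their medians).

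Without PB control replicate 1, 0 genes rose and 2 fell at 75 ppm, 1 rose and 1 fell at 150 ppm, 1 rose and 0 fell at 300 ppm and 2 rose and 0 fell at 600 ppm. Of all genes tested, 3.67%, 4.96%, 3.78% and 5.2% were then called in either direction at these doses. Single PB samples moved the counts too: leaving out replicate 1 at 75 ppm gave 11 called genes, and leaving out replicate 4 gave 1, each without the share of all genes beside it. At 600 ppm PB the summed macrophage markers ran from 1526 to 2725, against 1080 to 1740 in PB controls. Emr1, the single called gene of the 6 tested, rose by 1.61 (limma adjusted p = 0.0186). The lymphocyte sum ran from 110.2 to 141.6, against 115.5 to 120.6. The stellate genes Lrat and Dcn, the called genes of the 5 in that list, fell by 1.36 and 0.58 (limma adjusted p = 0.00659 and 0.0463). The stellate sum ran from 2087 to 2957, against 3391 to 3870, though Dcn had a change of 0.33 with median-centred arrays. None of Emr1, Lrat and Dcn passed without control replicate 1 (limma adjusted p = 0.0877, 0.0716 and 0.141). The part of these cells in the PB calls was not tested.

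The PB controls and the phthalate controls, both at 0 ppm, also differed. Psmb9 was lower in PB controls, at 5.69, 6.59, 6.85 and 6.67, against 6.88, 7.30 and 7.97 as the lowest, median and highest phthalate control, a difference of -0.88 (limma adjusted p = 0.0136). Psmc1 was lower too, at 7.65, 8.45, 8.84 and 8.64, against 8.82, 9.02 and 9.44, a difference of -0.69 (limma adjusted p = 0.00712). These were 2 of 40 genes lower and 0 higher, where 1.59% and 3.12% of all genes were, and without PB control replicate 1 there were 0 in either direction (limma adjusted p = 0.24 for Psmb9 and 0.228 for Psmc1).

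The changes with the top DEHP and PB doses were set against each other in the same fit, a contrast added after the values were seen, and the doses of 6000 and 600 ppm differ. The change of Psmd4 was 0.58 with DEHP and -0.21 with PB, a difference of 0.79 (limma adjusted p = 0.0254). The change of Psmb9 was -0.36 with DEHP and 0.97 with PB, a difference of -1.33 (limma adjusted p = 0.0193). These were 1 higher and 1 lower of 40, where 1.82% and 1.37% of all genes were. Without PB control replicate 1 neither passed, at 0.78 (limma adjusted p = 0.0508) and -1.07 (limma adjusted p = 0.108).

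The core and the regulatory genes were also set side by side. At 6000 ppm DEHP the median change of the 14 tested core genes was 0.31 and that of the 23 regulatory genes 0.31. Of the core genes 7 rose and 1 fell, and of the regulatory genes 9 rose and 1 fell. With the 3 immunosubunits set aside, the 11 other core genes had a median of 0.34, all 11 were above 0 and 7 rose. At 750, 1500 and 3000 ppm DEHP the core median minus the regulatory median was -0.07, -0.13 and -0.08. With BBP it was -0.05, -0.08, -0.02 and -0.10 from the lowest to the highest dose, and with DNOP 0.04, -0.10, -0.01 and 0.10. With PB it was -0.12, -0.09, -0.19 and 0.00 rounded at 75, 150, 300 and 600 ppm. The value of -0.19 at 300 ppm PB moved to between -0.056 and 0.0206 under 7 alternatives of processing. The mean over the core genes per sample, relative to the controls, was 0.20 ± 0.07 at 6000 ppm DEHP and 0.06 ± 0.10 at 150 ppm PB, and the mean over the regulatory genes was 0.25 ± 0.12 and 0.28 ± 0.04 in the same samples (SD, n = 4 samples each, of 4 label numbers with DEHP and 2 with PB). The per-sample core mean minus the regulatory mean, relative to the controls, was below 0 in every sample of 7 of the 16 dose groups and above 0 in every sample of none. It was -0.16 ± 0.06 and -0.20 ± 0.07 at 1500 and 3000 ppm DEHP, -0.18 ± 0.09 at 12000 ppm BBP, -0.09 ± 0.05 at 2500 ppm DNOP and -0.22 ± 0.10, -0.27 ± 0.10 and -0.14 ± 0.02 at 150, 300 and 600 ppm PB. Relative to the PB controls without replicate 1 the PB values were -0.17, -0.21 and -0.08 at 150, 300 and 600 ppm, again below 0 in every sample. The core mean used here includes the 3 immunosubunits, which were below 0 at each DEHP dose, and the per-sample measure was not computed without them. The regulatory mean includes Psmd14, which had changes of 2.08, 1.96 and 1.62 at 150, 300 and 600 ppm PB. The phthalate groups share their controls, as do the PB groups, so the 7 groups are not independent. The spread of the core mean minus the regulatory mean among single controls was 0.10 for the phthalate controls and 0.13 for the PB controls (SD). No p-value is given for these, since the genes were chosen with earlier results known.

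Among 20 tested partners of the pathway, a list of ubiquitin genes, shuttles and transcription factors also chosen with earlier results known, 3 rose and 0 fell at 6000 ppm DEHP (15% and 0%, beside 5.22% and 4.15% of all genes), with a median of 0.20. At 750, 1500 and 3000 ppm 1, 1 and 3 rose and 1, 0 and 0 fell. The 3 at 6000 ppm were Vcp, the segregase that pulls tagged proteins from complexes (0.41, limma adjusted p = 0.033), the ubiquitin ligase gene Ube3c (0.37, limma adjusted p = 0.0158) and Nfe2l2 (0.55, limma adjusted p = 0.0455). Without the 3 controls numbered 32, Ube3c still passed and Vcp and Nfe2l2 did not (limma adjusted p = 0.089 and 0.0781). Nfe2l2 passed at every DEHP dose, with changes of 0.70, 1.03, 0.81 and 0.55 from 750 to 6000 ppm, and at 12000 ppm BBP (0.71, limma adjusted p = 0.0163). Nfe2l1 passed at 3000 ppm DEHP (0.59, limma adjusted p = 0.0416) and had a change of 0.18 at 6000 ppm (limma adjusted p = 0.672). The core assembly factor gene Pomp had a change of 0.33 at 6000 ppm DEHP that did not pass (limma adjusted p = 0.0764). Of 9 tested targets of the Nfe2l2 factor, 3 rose and 0 fell at 6000 ppm DEHP (33.3%, beside 5.22% of all genes), namely Srxn1, which repairs peroxiredoxins (1.42), Nqo1, a quinone reductase (0.58), and Pgd of the pentose phosphate pathway (0.75), which did not pass without the 3 controls numbered 32 (limma adjusted p = 0.109). At 750, 1500 and 3000 ppm DEHP Srxn1 was the 1 target called, with rises of 0.58, 0.93 and 1.30, the first of which did not pass without those controls (limma adjusted p = 0.0831).

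With PB, Nsfl1c, a cofactor of Vcp, rose by 0.60, 0.69 and 0.72 at 150, 300 and 600 ppm, and the ubiquitin-activating enzyme gene Uba1 fell by 0.81, 0.90, 0.91 and 1.03 from 75 to 600 ppm, with median-centred arrays giving changes just above 0 at 150 and 300 ppm. Nsfl1c passed at these 3 doses also without control replicate 1, and Uba1 at none (limma adjusted p = 0.197, 0.107, 0.114 and 0.0513 from 75 to 600 ppm). Ubb, a polyubiquitin gene, rose by 0.40 at 600 ppm (limma adjusted p = 0.0495). Nfe2l2 had a change of 0.15 at 600 ppm PB that did not pass (limma adjusted p = 0.737). Of its 9 tested targets, Srxn1 rose at 600 ppm PB, by 0.84 (limma adjusted p = 0.00323), and by 0.86 without control replicate 1 (limma adjusted p = 0.00993).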

How the data were processed

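Liver RNA of 77 samples was measured on 1-colour Illumina bead arrays. Per the labels' protocols, RNA was extracted with Trizol, cleaned on RNeasy columns with a DNase step and labelled as biotin cRNA with a MessageAmp kit, and the array version and scanner software are not given in the sources used here. Per the file headers, the main deposited table gives each gene's mean bead signal on each array. This intensity is linear, and the authors had left it without normalization between arrays. The same deposited table holds a detection p-value of each signal. The deposited series matrix, whose intensity values the authors normalized in a way not given in the sources used here, served as an alternative.

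Background was removed by normal-exponential deconvolution (limma 3.58.1, R 4.3.3), 16 was added as an offset, and the log2 values were quantile normalized. The mean and SD of each array's background came from the detection p-values on the grid of 798 negative control steps (71.22% of those between 0 and 1, tolerance 0.01), fitted in 50 bins, where the plan named limma's neqc, which uses all of them and was run as an alternative. The offset and the background set the changes of dim genes. Precision is limited for dim genes by signal over background, and in general by how many arrays a group has.

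The 77 samples were fitted together in limma with 18 group means, the 62 label numbers as a random block (correlation 0.0986) and 59 residual degrees of freedom. P-values were adjusted by Benjamini-Hochberg over the 11324 tested genes of a comparison. The steps were tested on simulated data. All 43 genes are symbols in the RefSeq table.

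The members, the other gene lists and the marker lists were chosen with earlier results of these data known. Genes were named by rule: the immunoproteasome, PA28 and standard catalytic genes, the 3 core and 3 regulatory called genes with the largest change in each comparison, called Psmf and Psmg genes, up to 4 called genes of each other list, and Psmd4, Psmd11, Psmd14, Nfe2l1, Nfe2l2, Pomp and Cyp4a14. Other called members were named after their values were seen. Alternatives covered the background, offset, normalization, matrix, filter, block, array weights, controls and each replicate left out. Samples with the same replicate number in their description were checked for pairing: 25 of 55 pairs of group deviations correlated above 0.1, with r from -0.242 to 0.543, and every pair of a comparison did so only at 3000 ppm BBP and 2500 ppm DNOP. The labels do not say what the number marks, and it was not used as a pairing. With it as a block 0 proteasome genes were called in those 2 comparisons, as without it.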

Additional observations from a re-analysis of the deposited data

Results flagged for a closer look

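In 111 groups of values of 4 to 10 samples, a sample was looked for whose gap to its nearest neighbour took up more of the group's range than Dixon's 95% critical value for that number of samples, and 11 were found, where chance gives about 1 in 20. Each value below is the gap as a share of the range. At 6000 ppm DEHP the mean log2 level over the 40 tested proteasome genes was 8.98 in replicate 1 and 9.14 to 9.17 in the other 3 (0.834). At 150 ppm PB it was 9.02 in replicate 4 and 8.92 to 8.93 in the other 3 (0.88). Psmb4 at 6000 ppm DEHP had 12.86 in replicate 2 and 12.49 to 12.54 in the others (0.871), and Psmc3 had 9.81 in replicate 3 and 10.32 to 10.37 in the others (0.906). Psmb9 at 600 ppm PB had 7.02 in replicate 3 and 7.48 to 7.57 in the others (0.834), and Psmd12 in the PB controls had 8.23 in replicate 1 and 8.50 to 8.55 in the others (0.84). Among the 10 phthalate controls, Psmb2 was low in replicate 3 (9.84 beside 10.11 to 10.33, 0.556), Psmc2 in replicate 2 (11.25 beside 11.5 to 11.77, 0.472), Psmc4 in replicate 2 (10.01 beside 10.38 to 10.67, 0.569), Psmd8 in replicate 4 (9.53 beside 9.83 to 10.11, 0.51) and Psme3 in replicate 1 (8.75 beside 9.18 to 9.53, 0.556).

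The change differed between the compounds for Psmb9 and Psmd4 when the change at 600 ppm PB was subtracted from that at 6000 ppm DEHP, doses that differ. The difference was -1.332 for Psmb9 (limma adjusted p = 0.0193) and 0.7851 for Psmd4 (limma adjusted p = 0.0254), and neither passed without PB control replicate 1.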

How the results depend on the processing

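Counts of called proteasome genes are given here where they moved by over 1.5 times. The number or share of all genes called is given only where stated. A count without it does not set the members apart from other genes. With each array centred on its median in place of quantile normalization, 0, 0, 1 and 9 genes were called at 750, 1500, 3000 and 6000 ppm DEHP (the 9 all among the 18), 0 at 12000 ppm BBP, 0, 30, 28 and 29 at 75, 150, 300 and 600 ppm PB (all higher), 0 for DEHP against BBP at 3000 and 6000 ppm, 30 for the PB controls against the phthalate controls (all lower) and 1 for DEHP minus PB. With that scaling the median of all genes, which lay within 0.02 of 0 with quantile normalization, was 0.12 and 0.14 at 3000 and 6000 ppm DEHP, 0.19 at 6000 ppm BBP, 0.15 and 0.20 at 2500 and 5000 ppm DNOP, 0.16, 0.54, 0.47 and 0.54 with PB, 0.14 for DEHP against BBP at 3000 ppm, -0.44 for the PB controls and -0.31 for DEHP minus PB. Beside these the member median was 0.57 at 6000 ppm DEHP and 0.95, 0.87 and 0.93 at 150, 300 and 600 ppm PB. It called 801 genes higher and 109 lower at 6000 ppm DEHP, against 591 and 470, and 4924 and 154 at 150 ppm PB, against 550 and 761. It reversed Psmb1 to 0.36, 0.42 and 0.45 at 150, 300 and 600 ppm PB, Psmg3 to 0.48 and 0.47 at 150 and 600 ppm, Uba1 to 0.093 and 0.0098 at 150 and 300 ppm, and, at 600 ppm, Dcn to 0.33, Psmb10 to 0.79, Psmb5 to 0.86 and Psme1 to 0.96. The cause was not tested.

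With array weights the counts, given without the share of all genes, were 6 and 14 at 1500 and 3000 ppm DEHP, 2 at 12000 ppm BBP, 1 and 1 at 2500 and 10000 ppm DNOP, 2, 5 and 6 for DEHP against BBP at 1500, 3000 and 6000 ppm, 0 for the PB controls against the phthalate controls and 4 for DEHP minus PB. With samples of 1 label number averaged they were 0 at 12000 ppm BBP, 1, 4, 2 and 5 with PB and 1 for DEHP minus PB. The deposited matrix gave 5 for DEHP against BBP at 6000 ppm, and neqc gave 1 for the PB controls. The replicate block, the number in the description, gave 4 for DEHP minus PB and moved no other count by over 1.5 times (19 at 6000 ppm DEHP).

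The core median minus the regulatory median at 300 ppm PB was -0.034 without background correction, 0.0206 with neqc, -0.056 with an offset of 50, -0.0034 with median-centred arrays, -0.0384 with the deposited matrix, -0.0498 with genes detected on most arrays and -0.0356 with array weights. For the PB controls against the phthalate controls it was 0.0134 without background correction and -0.0078 with neqc, at 600 ppm PB -0.0917 with median-centred arrays, and for DEHP against BBP at 1500 ppm 0.110 with array weights.

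Leaving out 1 replicate in turn gave 2 to 3, 1 to 2, 2 to 5 and 10 to 17 called genes at 750, 1500, 3000 and 6000 ppm DEHP, and 0 to 2 at 12000 ppm BBP. It gave 1 to 11, 2 to 8, 1 to 5 and 2 to 8 at 75, 150, 300 and 600 ppm PB. It gave 0 to 1, 1 to 3 and 1 to 5 for DEHP against BBP at 1500, 3000 and 6000 ppm, 0 to 3 for the PB controls and 0 to 4 for DEHP minus PB, and 0 for BBP and DNOP elsewhere. The core median minus the regulatory median then ran from -0.158 to -0.0399 at 1500 ppm DEHP and from -0.108 to 0.0065 at 600 ppm PB. Over the named genes and alternatives, 4563 values stayed on their side of the threshold, 619 lost it, 21 gained it and 11 reversed.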
